A study of Danio rerio with 8 samples.

Results

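Low oxygen was compared with normal oxygen in whole wildtype zebrafish (Danio rerio) embryos at the 8-somite stage of segmentation, 12 h into development, when the first body segments have formed and the brain, notochord and heart fields are being laid down. The comparison holds 3 of the 7 arrays with values: hypoxia replicate 1, labelled with Cy5, against normoxia replicate 1, also Cy5, and normoxia replicate 2, Cy3. They were chosen by their labels. The series labels 8 samples, but hypoxia replicate 2 at this stage has an empty column, so the hypoxic side is 1 array. Everything below describes how that array differs from its 2 controls, and a difference has no replicate check on the hypoxic side.

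The hypoxic embryos spent 1 to 2 h in medium equilibrated with nitrogen to less than 1% oxygen in a closed chamber, and the normoxic embryos carry the label of no stress. All embryos were raised at 28.5 °C, and each sample pooled 12 to 15 dechorionated embryos of matched stage, so a value comes from a small pool and not from 1 animal. The labels do not say which exposure within 1 to 2 h each hypoxic sample had. The gastrula samples of the series, at the shield stage at 6 h, form a separate comparison of 2 hypoxic and 2 normoxic arrays with controls of their own, and serve here as a second look at the same genes.

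Animal cells sense oxygen through hydroxylase enzymes that mark hypoxia-inducible factor (HIF) for capture by the Von Hippel-Lindau protein and for degradation. When oxygen is short, HIF accumulates and raises genes of glycolysis, mitophagy and red cell production. A separate system, the heat shock response, is driven by the transcription factor Hsf1, which is freed from chaperones when proteins misfold and then raises Hsp70 and the cochaperones of Hsp70 and Hsp90. Zebrafish embryos are known to slow or halt development reversibly when oxygen is removed.

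Values are on the log2 scale, as their range implies, and every difference is the hypoxic value minus the mean of both normoxic values, so that 1 unit is a 2-fold difference. The array totals are comparable: all 3 arrays have 37157 values, with medians of 8.62 in the hypoxic array, against 8.58 and 8.54 in normoxic replicates 1 and 2. Their widths differed. The interquartile range was 2.51 in the hypoxic array, against 2.78 and 3.02 in the normoxic arrays. Over rows, the hypoxic array correlated at r = 0.973 with normoxic replicate 1 and at 0.953 with replicate 2, while the normoxic replicates correlated at 0.978 with each other (a description over rows of shared arrays). The hypoxic array was thus nearer to the normoxic array of its own dye and replicate number, which cannot be told apart here.

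The 4 somite and muscle genes given first were named after their values were seen, and lay near their 8-somite controls in the hypoxic array. The gene meox1 (NM_001002450), a homeobox gene of the somites, had 13.61 in the hypoxic array, against 13.80 and 14.31 in the normoxic 8-somite arrays, and averaged 10.67 in hypoxic and 11.04 in normoxic gastrulae. The actin gene acta1b of muscle had 12.21, against 12.59 and 12.47, and the muscle methyltransferase gene smyd1b had 10.23, against 10.15 and 10.77. The somite gene uncx4.1 had 9.77, against 9.61 and 10.24. None of these 4 lay 1 unit outside its controls. Other somite and muscle genes lay farther above both controls, with differences of 0.76 in ripply1, 1.64 in pax7a and 1.34 in prdm1a. Of all 28 measured, 14 lay above 0 and 14 below.

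A row was called higher where the hypoxic value lay at least 1 log2 unit above the higher of both normoxic values, and lower where it lay at least 1 unit below the lower of them. By this rule 453 of 37157 rows (1.22%) were higher and 749 (2.02%) lower. Among the 2650 genes with a symbol, 13 (0.491%) were higher and 35 (1.32%) lower. Calls within the gene lists below are to be read against these shares. The median difference was -0.01 over all rows as over named genes. Without regard to size, the hypoxic array lay above both controls in 35.1% of named genes and below both in 39.3%, the shares against which such counts in the gene lists are to be read. The normoxic arrays themselves differed from each other by at least 1 unit in 3.36% of rows and 1.74% of named genes, whereas the same-dye difference of the hypoxic array reached that size in 4.77% of rows and the other-dye difference in 10.9%. Differences of that size were thus more frequent against either control than between the controls.

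The excess of lower calls followed signal level and the scaling of the arrays. Rows were sorted by mean level into 10 bins of equal size. Bin 5 had a median difference of 0.09, bin 8 of -0.38 and bin 9 of -0.32. In bin 8, 1.48% of rows were higher and 7% lower. All 35 lower genes lay in bins 7 to 9, as did 9 of the 13 higher ones. After the arrays were quantile normalized together, which removes the difference in width, 604 rows were higher and 447 lower. The higher share was 57.5% where it was 37.7% as deposited, and with each array centred on its median the share was 29.9%. Quantile normalization again, as the step is called below, means that it was applied to the deposited values, whose widths differed. Of the named genes, 21 were then higher and 17 lower after quantile normalization, with all 13 of the higher and 15 of the 35 lower genes among them. The split between higher and lower thus depended on the scaling, and the text says for the lower genes it describes whether they kept the call after quantile normalization.

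**Figure D1:**
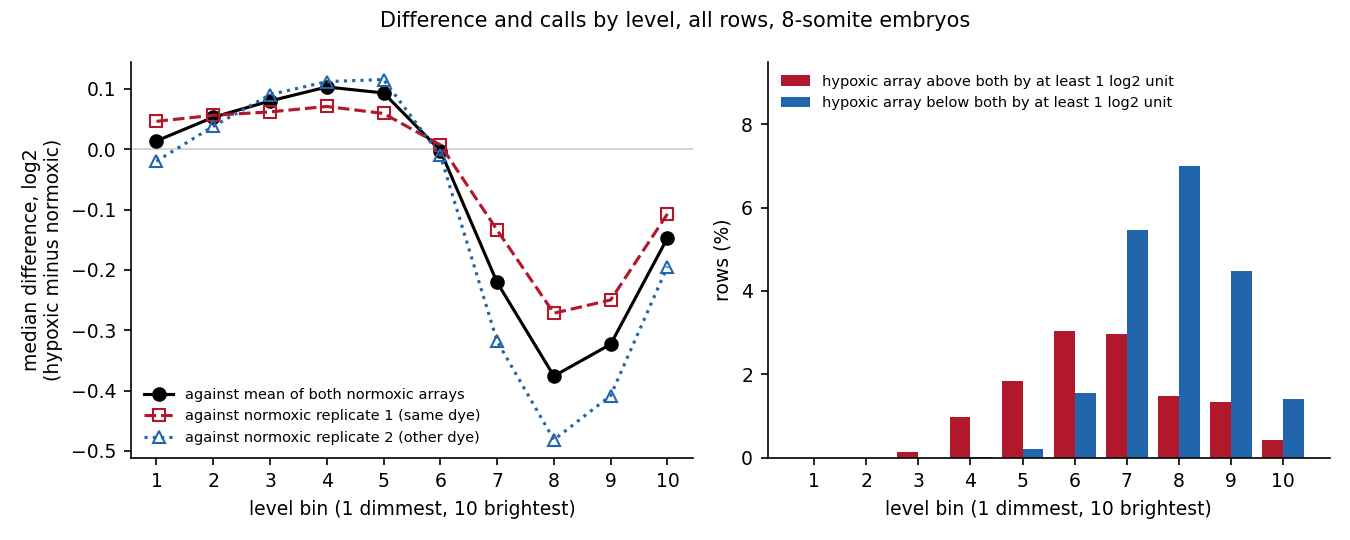
Left, the median log2 difference (hypoxic minus normoxic, y axis) of all rows in 10 equal bins of mean level (x axis), against the mean of both normoxic arrays and against each alone. Right, the percentage of rows in each bin that lay at least 1 log2 unit above (red) or below (blue) both normoxic arrays. Medians were near 0 in dim bins and lowest in bin 8, at -0.38, where lower calls reached 7%.

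The gene of largest difference among the named ones was hsp70.3 (NM_131397), which encodes a stress-inducible Hsp70, the chaperone that binds unfolded proteins. It had 11.80 in the hypoxic array, against 8.76 and 8.74 in the normoxic arrays, a difference of 3.05 (8.26-fold), with 3.04 for the same dye alone. The hypoxic value stood far above both controls, which lay within 0.02 of each other. The genes hsp70.1 and hsp70.2 neighbour hsp70.3 on the GRCz12tu assembly and have no named row here. Hsp70 genes can be close in sequence, and whether the probes tell these copies apart was not tested. In a whole embryo, a higher value may come from more RNA per cell or from more cells with it, which cannot be told apart, and this holds for every gene below.

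One cochaperone gene was called too. The Hsp90 cochaperone gene chordc1a (NM_001025175) had 10.27 in the hypoxic array, against 8.33 and 8.67 in the normoxic arrays, a difference of 1.77 (3.41-fold). The Hsp70 cochaperone gene bag3 (NM_001003533), which links Hsp70 to autophagy of damaged proteins, had 9.78, against 8.84 and 8.68, a difference of 1.02 that missed the call, since its distance to the nearer control was 0.95. Other Hsp70 partners were closer to their controls: bag2 differed by 0.67, dnajb4 by 0.65 and dnajb2 by 0.54, each above both normoxic arrays. Other members lay below both controls: the Hsp70-Hsp90 adaptor gene stip1 differed by -0.21, the Hsp110 family gene hspa4a by -0.29 and dnajc8 by -0.75. Of 21 measured heat shock genes, 2 were called higher (0.491% of all named genes were) and 0 lower, and 14 lay above 0. Their median was 0.12 (0.05 after quantile normalization), beside -0.01 for all named genes. The median level of 8.39 lay in bin 5, where the median of all rows was 0.09. The 3 measured chaperonin and folding enzyme genes all lay below both controls (39.3% of all named genes did), with none called: the chaperonin subunit gene cct2 at -0.92 and the prolyl isomerase genes fkbp3 at -0.79 and ppie at -0.74. Their median was -0.79 as deposited and -0.62 after quantile normalization. The median level of 13.22 lay in bin 10, where the median of all rows was -0.15.

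**Figure D2:**
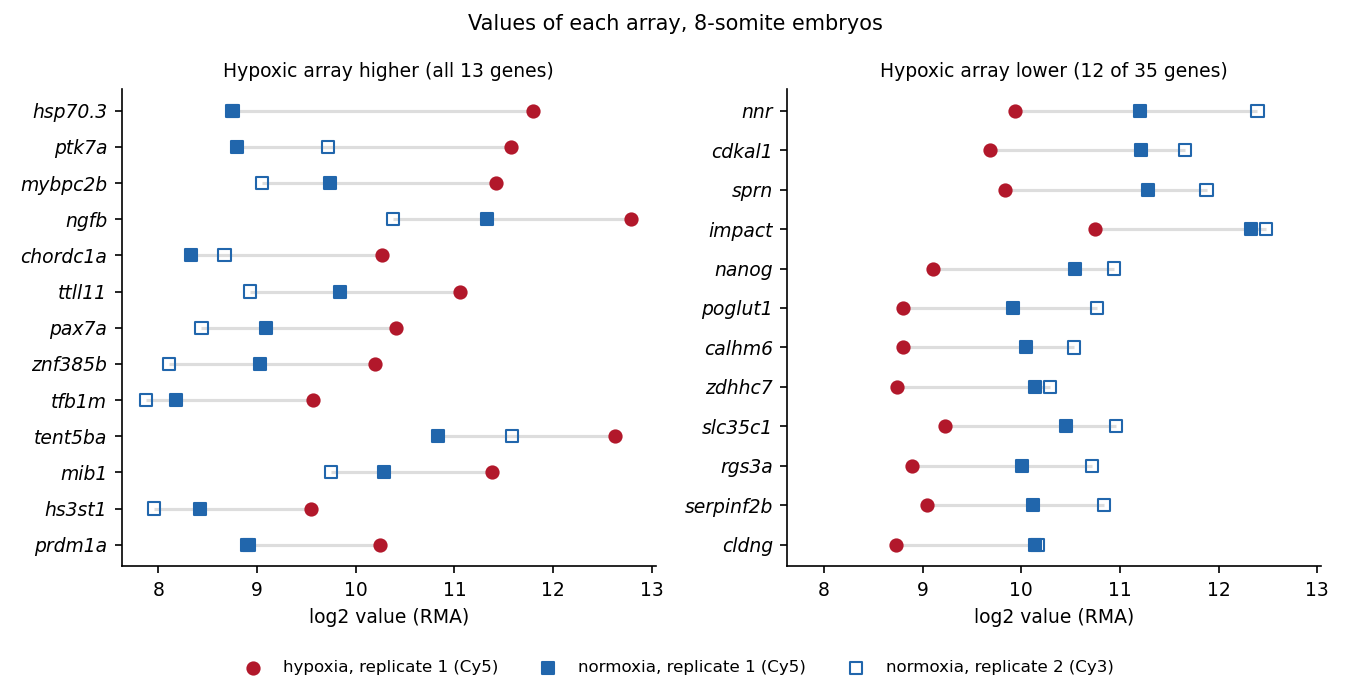
The log2 value (x axis) of each array for the 13 named genes called higher (left) and for the 12 of the 35 called lower with the largest differences (right). The red circle is the hypoxic array, the filled square normoxic replicate 1 of the same dye and the open square normoxic replicate 2. In all 25 genes shown the hypoxic array lies outside both controls by 1 unit or more, with hsp70.3 at 11.80 the farthest out.

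Among the next genes by size were 3 of cell signalling. The gene ptk7a (NM_001020665) encodes a receptor-like protein of the Wnt and planar polarity pathway, which orients cells as the embryonic axis narrows and lengthens. It had 11.58 in the hypoxic array, against 8.79 and 9.72 in the normoxic arrays, a difference of 2.32 (5-fold). The controls differed by 0.92, less than the 1.86 that separated the hypoxic array from the nearer of them. The nerve growth factor gene ngfb (NM_199210), a neurotrophin that keeps sensory neurons alive, had 12.79, against 11.33 and 10.38, a difference of 1.94 (3.84-fold). The ubiquitin ligase gene mib1 (NM_173286), which drives the uptake of Notch ligands needed for Notch signalling, had 11.38, against 10.29 and 9.75, a difference of 1.36. In ngfb and mib1 the normoxic array of the same dye was the nearer control.

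Most related pathway genes differed less. Of 10 measured genes in the Notch list, mib1 was the 1 called. In that list 9 lay above both normoxic arrays (35.1% of all named genes did) and the median was 0.31. The symbol patterns do not cover every Notch gene. Outside the list, poglut1, whose product modifies Notch receptors, was called lower at -1.54. The Notch inhibitor gene numb had 9.83 in the hypoxic array, against 8.86 and 8.24, a difference of 1.28 whose distance to the nearer control was 0.97. The genes rbpja and rbpjb, which encode the DNA-binding partner of Notch, differed by 0.32 and 0.35. Of 20 Wnt and planar polarity genes, ptk7a was called, 14 lay above 0 and the median was 0.15, which includes vangl2 at 0.20 and wnt4 at -0.67. Among 6 Hedgehog genes 0 were called, and the effector gene gli2b, at 9.21 against 8.33 and 8.28, differed by 0.90. The lists of FGF (15 genes, median 0.10) and of BMP, TGF-beta and Nodal (17 genes, median 0.11) had 0 calls. Their median levels lay in bins 5 and 4, where the medians of all rows were 0.09 and 0.10.

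Of the genes called higher, 3 are known from muscle or neural crest. The paired-box gene pax7a (NM_131325), which marks muscle progenitors and pigment-forming neural crest, had 10.41 in the hypoxic array, against 9.09 and 8.44, a difference of 1.64 (3.13-fold). The repressor gene prdm1a (NM_199515), needed for slow muscle fate and for neural crest, had 10.25, against 8.89 and 8.92, a difference of 1.34 that barely changed with the control chosen. The gene mybpc2b (NM_001013511) encodes a myosin-binding protein of the thick filament and had 11.42, against 9.74 and 9.05, a difference of 2.02 (4.06-fold). The symbol patterns of the somite and muscle list do not cover mybpc2b.

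The muscle list as a whole lay near 0. Of 28 measured somite and muscle genes, pax7a and prdm1a were called and 0 were lower, 14 lay above 0 and 14 below, and the median was -0.04. The segment boundary gene ripply1 differed by 0.76, at 13.50 against 12.59 and 12.91, while contractile genes such as myl13 (-0.55), tpm4a (-0.45) and acta1b (-0.32) lay below both controls without a call. In the list 11 genes lay below both controls and 9 above both (39.3% and 35.1% of all named genes did). After quantile normalization acta1b differed by -0.10 and no longer lay below both. In neural crest, 2 of 6 genes were called higher (0.491% of all named genes were), the same pax7a and prdm1a. The mesenchymal gene twist2 differed by 1.05 without a call, and the median of the list was 0.71. The lineage genes tfap2c and erbb3b differed by -0.18 and -0.05. Of 22 homeobox genes, pax7a was called higher and nanog lower, and meis2b (NM_130910), a cofactor of Hox proteins, had 11.51, against 10.01 and 10.64, a difference of 1.19 with 0.87 to the nearer control.

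The other genes called higher act in varied processes. The methyltransferase gene tfb1m (NM_001076769), which modifies mitochondrial ribosomal RNA, had 9.56 in the hypoxic array, against 8.18 and 7.88, a difference of 1.53. The tubulin glutamylase gene ttll11 had 11.06, against 9.84 and 8.93, and the zinc finger gene znf385b had 10.19, against 9.02 and 8.11, differences of 1.67 and 1.63. The polymerase family gene tent5ba had 12.63, against 10.83 and 11.59, and the heparan sulfate sulfotransferase gene hs3st1 had 9.55, against 8.42 and 7.96, differences of 1.42 and 1.36. Of these, tent5ba lay nearest to the threshold, 1.04 above its nearer control, and it lost the call when arrays were centred on their medians.

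Of 6 measured genes of the HIF pathway 0 were called, a count that says little where 0.491% of named genes were called higher. Of the 6, 4 lay above 0 and 3 above both controls (35.1% of all named genes did), with a median of 0.41. The mitophagy receptor genes bnip3 and bnip3la, both known HIF targets, differed by 0.65 and 0.78. For bnip3 the hypoxic array had 8.80, against 8.51 and 7.79, so that the same-dye difference was 0.29. The gene vhl, whose product marks HIF for degradation, had 10.59, against 9.79 and 10.07, a difference of 0.66. The erythropoietin gene epoa differed by 0.18, cited2 by -0.16 and plod2 by -0.40, while a dimmer row of plod2 differed by 0.53. All 6 differences are within 1 unit, and in bnip3, epoa and cited2 they are smaller than the difference between the controls, which was 0.73 in bnip3. Glycolysis was represented by 4 genes, which differed by -0.07 to 0.41 with 0 calls. Their median level of 7.54 lay in bin 1, the dimmest, where 0 of 3716 rows were called. The absence of calls among these genes thus says little.

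Lower genes formed a longer list with smaller differences, from 1.07 to 1.86 below the controls. The first by size was nnr (NM_001029947), which had 9.94 in the hypoxic array, against 11.20 and 12.39, a difference of -1.86. Its controls differed by 1.19, and the same-dye difference was -1.26. The gene cdkal1 (NM_200627), which encodes an enzyme that modifies transfer RNA, had 9.68, against 11.22 and 11.66, a difference of -1.76. The prion-like gene sprn (NM_198981) had 9.84, against 11.29 and 11.88, a difference of -1.75. These 3 kept the call after quantile normalization, at -1.60, -1.48 and -1.47. So did calhm6 and rgs3a, which differed by -1.48 and -1.47 as deposited and by -1.32 and -1.29 after quantile normalization.

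Several lower genes, named after their values were seen, act in translation or on RNA, and the lists for these processes held few calls. The gene impact (NM_001005595) encodes an inhibitor of Gcn2, the kinase that restrains translation when amino acids are short. It had 10.75, against 12.32 and 12.48, a difference of -1.65 (-1.40 after quantile normalization, still called). Its controls lay close together, and the hypoxic array was below both by 1.57. The methyltransferase gene prmt3, which acts on a ribosomal protein, had 10.63, against 11.86 and 12.04, and pym1, which takes exon junction complexes off translated RNA, had 9.60, against 10.69 and 10.91. Neither passed the threshold after quantile normalization, with differences of -1.02 and -0.93. The same was so of trmt13 (-1.21 as deposited), which methylates transfer RNA, and of the splicing genes snrnp25 (-1.23) and wbp11 (-1.10). The symbol patterns of the translation factor list and of the RNA binding and splicing list do not cover trmt13, snrnp25, wbp11 or cdkal1. Few calls in those lists thus partly reflect their coverage. Of 11 measured translation factors, 0 were called and 10 lay below 0, with a median of -0.48 and eif3k and eif2b1 at -0.82 and -0.81. Their median level of 11.77 lay in bin 9, where the median of all rows was -0.32. After quantile normalization the median of the list was -0.30.

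Other lower genes, also named after their values were seen, encode proteins of the Golgi, of membranes or of traffic. The Golgi transporter gene slc35c1 (NM_001008590), which carries GDP-fucose, had 9.23 in the hypoxic array, against 10.45 and 10.96, a difference of -1.48, and the sulfate donor transporter gene slc35b3 had 9.94, against 10.99 and 11.41, a difference of -1.26. The palmitoyltransferase gene zdhhc7 had 8.74, against 10.14 and 10.29, and the glucosyltransferase gene poglut1, which modifies Notch receptors, had 8.80, against 9.91 and 10.76, differences of -1.48 and -1.54. The tight junction gene cldng had 8.73, against 10.14 and 10.16, a difference of -1.42. After quantile normalization slc35c1, zdhhc7, poglut1 and cldng were still called and slc35b3 was not. The GTPase gene rac1b, of actin dynamics, lay 1.35 below its controls, both at 11.35, and the coat GTPase gene sar1ab, of export from the endoplasmic reticulum, had 8.90, against 9.94 and 10.13. Both missed the call after quantile normalization, at -0.96 and -0.97 from the nearer control. Of 56 vesicle traffic genes, sar1ab and stxbp6 (-1.24, not called after quantile normalization) were called lower and 0 higher, with 36 below 0 and a median of -0.17. Their median level of 9.46 lay in bin 7, where the median of all rows was -0.22. Of 67 solute carriers 3 were called lower, 0 higher, and the median was -0.03. Of all named genes 1.32% were called lower.

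Mitochondrial genes were covered by 3 lists, and differences between the lists were not tested. Among 23 import and carrier genes, the oxoglutarate carrier gene slc25a11 (9.80, against 10.86 and 11.37) and the import chaperone gene timm10b (9.93, against 11.01 and 11.47) were called lower. Of all named genes, 1.32% were. In the list 20 lay below 0, and the median was -0.27 (-0.34 after quantile normalization). The median level of 9.36 lay in bin 7, where the median of all rows was -0.22. In bins 7 to 9, 74.4% of named genes lay below 0. Both slc25a11 and timm10b differed by -1.31 and lost the call after quantile normalization, at -1.03 and -1.01. The 10 respiratory chain genes had 0 calls and a median of 0.10, from -0.58 for the ATP synthase gene atp5f1b to 0.75 for ndufa4a. In mitochondrial gene expression 12 of 18 genes lay below 0, with mrpl46 at -1.26 (8.32, against 9.13 and 10.04, not called), and tfb1m was the 1 called higher. The median of that list was -0.26 as deposited and -0.05 after quantile normalization.

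The remaining lower genes with a known place in development or protein turnover were few. The pluripotency gene nanog (NM_001098392), active before and during gastrulation, had 9.11 in the hypoxic array, against 10.55 and 10.94 in the normoxic 8-somite arrays, and averaged 12.14 in hypoxic and 14.27 in normoxic gastrulae. Its hypoxic value was thus below the normoxic ones at 8 somites, and its hypoxic average below the normoxic average in gastrulae. Whether the level of nanog tracks stage under hypoxia was not tested. Other members of the maternal and early zygotic list differed less and in both directions. Among them were the egg coat gene zp2.2 (-0.40), slbp2 (-0.64) and sox19b (0.95). Of 9 measured members, 1 was called lower and 0 higher. The symbol patterns of the list may not cover every early gene, and nnr is not among its members. The transcription factor gene ets2 had 9.08, against 10.32 and 10.35, a difference of -1.25, and was the 1 gene called among 17 of blood and endothelium, whose median was 0.04. The proteasome subunit gene psmd2 had 9.96, against 11.20 and 11.48, a difference of -1.39. Of 29 proteasome and ubiquitin genes it was the 1 called, with 22 below 0 and a median of -0.20. The median level of that list, 9.80, lay in bin 7, where the median of all rows was -0.22. The orphan cytochrome gene cyp20a1 had 11.01, against 12.32 and 12.39, a difference of -1.35. Of these, nanog, psmd2 and cyp20a1 were still called after quantile normalization, and ets2 was not.

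Lists of other embryonic tissues held few calls. Of 8 neural patterning genes 0 were called, 7 lay above both controls (35.1% of all named genes did) and the median was 0.32. The largest difference there was that of sox19b, an early neural and pluripotency gene that is also in the maternal list, at 12.26 in the hypoxic array, against 11.26 and 11.37. Epidermis and hatching gland had 1 call among 17 genes, the claudin gene cldng, with 11 above 0 and a median of 0.17. In that list the claudin genes cldn30 and cldn5a differed by -1.09 and 0.83, in opposite directions. Among 12 endoderm and yolk syncytial layer genes 0 were called, and the largest differences were those of hnf4b, a nuclear receptor gene, at -0.84 and of gc, which encodes vitamin D binding protein, at 0.81. The 5 notochord and floor plate genes had 0 calls and a median of 0.10. Blood and vessel genes included runx1, a regulator of blood stem cells, at 0.62 and egfl7 of endothelium at 0.65, the highest of the list, neither called. Of the 17 in that list, 9 lay above 0 and 8 below. Both controls were exceeded in 6 and undercut in 6, and the 1 call, ets2, was lower.

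Enzyme and chromatin lists were mixed too. Of 24 cytochrome P450 genes, cyp20a1 was called lower and cyp2aa3 reached 14.11 in the hypoxic array, against 13.08 and 13.13, just outside the threshold, while the median was -0.06. Of 42 glycosyltransferase genes hs3st1 was called higher, 22 lay above 0 and 20 below. Of 16 chromatin genes prmt3 was called lower and 11 lay below both controls (39.3% of all named genes did), with a median of -0.26, while the Polycomb gene cbx7a differed by 0.95 without a call. The RNA binding and splicing list had 1 call among 17 genes, pym1, with a median of -0.24 that was -0.05 after quantile normalization.

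Cell cycle and replication genes had one of the lower medians among the lists. Of 13 measured, 0 were called and 10 lay below both controls (39.3% of all named genes did), with a median of -0.43 (-0.25 after quantile normalization). Their median level of 12.07 lay in bin 9, where the median of all rows was -0.32. The list includes the replication helicase gene mcm5 at -0.84 and its partner mcm10 at -0.80. The cyclin gene ccna2 differed by -0.16. Among 15 apoptosis and DNA damage genes, 15 antioxidant and iron genes, 16 sterol and lipid synthesis genes, 14 autophagy and lysosome genes and 11 genes of insulin, AMPK and mTOR, 0 were called, and the medians ran from -0.16 to 0.08. The 6 ribosomal protein matches, of which rps6ka3b is a kinase gene, differed by -0.31 to 0.08. Their median level of 15.70 lay near the highest values of the 3 arrays, 15.85 to 15.96, so a higher value had little room there. Across the 41 lists, each with at least 3 measured genes, 21 medians lay above 0 and 20 below.

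**Figure D3:**
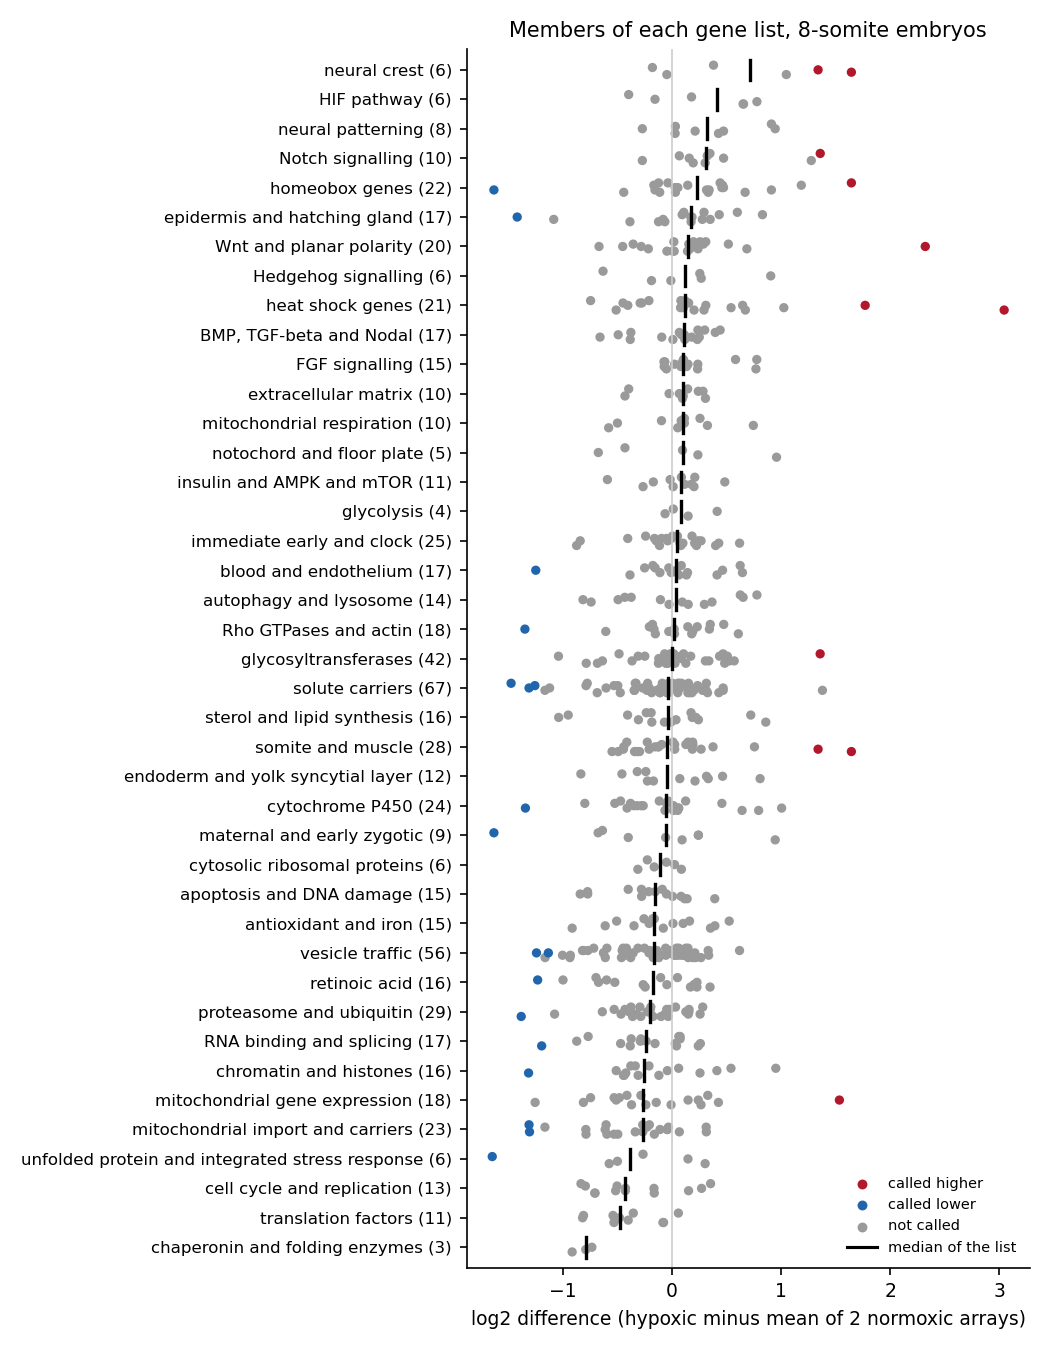
The log2 difference (x axis, hypoxic minus the mean of both normoxic arrays) of each measured member of 41 gene lists (rows, with the number of members), in red where called higher, blue where called lower and grey otherwise, with the median as a black bar. Medians ran from 0.71 in neural crest (6 genes) to -0.79 in chaperonin and folding enzymes (3 genes), and hsp70.3 stands out at 3.05.

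The size of differences depended on which control was used. In 7 of the 48 called genes the same-dye difference was the larger one, and in the others the difference against the Cy3 array was. For ptk7a, chordc1a and tent5ba the same-dye difference was larger, at 2.78, 1.94 and 1.80. For nnr it was smaller, at -1.26 against -1.86 for the mean of both controls. Counted against the same-dye array alone, 24 genes were at least 1 unit higher and 43 lower, and against the other-dye array alone 61 were higher and 158 lower. All 48 called genes are in both counts, as the call requires.

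**Figure D4:**
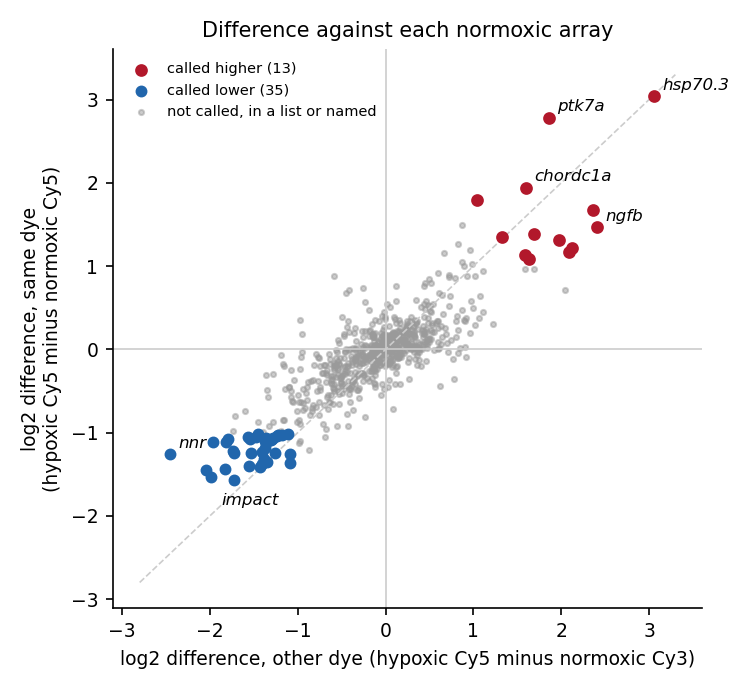
The log2 difference against the normoxic array of the same dye (y axis) and against the normoxic array of the other dye (x axis) for the 13 genes called higher (red), the 35 called lower (blue) and the other named or listed genes (grey); the dashed line marks equal differences. The same-dye difference is the smaller one in ngfb (1.47) and nnr (-1.26) and the larger one in ptk7a (2.78).

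At the threshold, the genes just inside on the higher side were tent5ba, mib1, hs3st1, znf385b and ttll11, which cleared the nearer control by 1.04 to 1.22. Just outside were cyp2aa3, numb, nkd2b, zgc:198329 and bag3, at 0.95 to 0.98. On the lower side rilpl2, relt, wbp11, sar1ab and dhrs7 cleared it by 1.01 to 1.04, and all 5 lost the call after quantile normalization, while neurl1ab, tmem11, gkap1, iba57 and cldn30 reached -0.98 to -0.99.

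The gastrula arrays, which share no sample with this comparison, showed where the 8-somite differences recurred. Of the 13 higher genes, 12 were above 0 at the gastrula stage, where 52.9% of all named genes were, and 12 had both hypoxic gastrula arrays above both normoxic ones, as did 33.6% of all named genes. Of the 35 lower genes, 33 were below 0 and 32 had both hypoxic arrays below both normoxic ones, as did 29.8% of all named genes. Bright genes were lower at both stages: in bins 7 to 9, 73.6% of 785 genes were below 0 at the gastrula stage and 74.4% at 8 somites. After quantile normalization again, 20 of 21 higher and 17 of 17 lower genes had the same direction at the gastrula stage, where 47.6% of all named genes were above 0 and 52.4% below under that scaling. The 2 normoxic 8-somite arrays also differed from each other along this gastrula difference. Over named genes, replicate 1 minus replicate 2 correlated with it at r = 0.469 (Pearson). The parts of signal level and of that pattern in the shared directions were not tested.

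The sizes of single differences at each stage are given here as a description. In ngfb the gastrula values were 12.85 and 13.68 under hypoxia, against 10.28 and 8.28 in normoxia, a difference of 3.98 where the 8-somite difference was 1.94. The normoxic gastrula arrays of ngfb themselves lay far apart. For pax7a the gastrula difference was 2.19, for ptk7a 1.98, and for ttll11 2.52. For cdkal1 it was -2.32 and for impact -2.22. In these genes both stages had the same direction. The heat shock gene hsp70.3 went the other way: gastrula values were 8.35 and 8.37 under hypoxia, against 8.74 and 8.78 in normoxia, a difference of -0.40. In chordc1a the gastrula difference was 0.37, at means of 9.0 in hypoxic and 8.63 in normoxic gastrulae. Among the lower genes, calhm6 had a gastrula difference of 0.06, and its hypoxic and normoxic gastrula arrays overlapped.

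**Figure D5:**
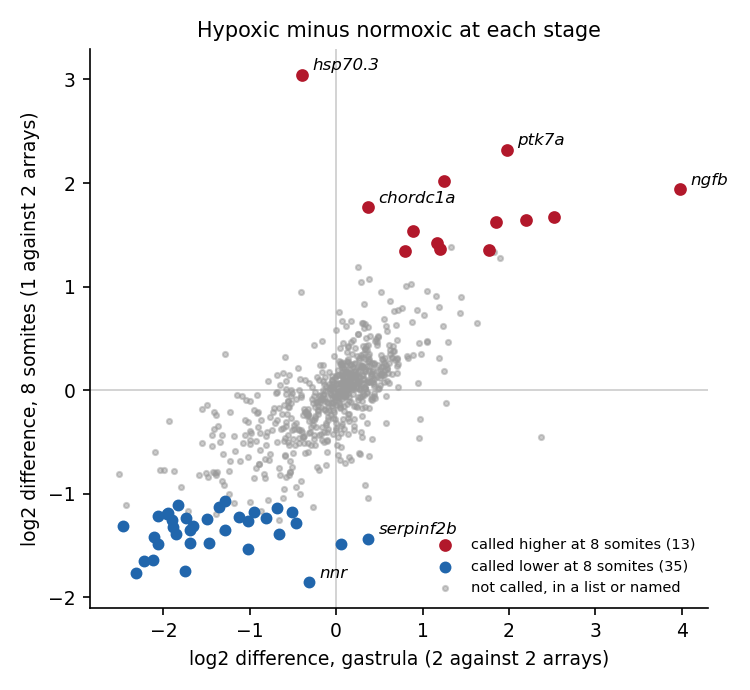
The log2 difference at 8 somites (y axis, 1 hypoxic against 2 normoxic arrays) and at the gastrula stage (x axis, 2 against 2 arrays) for the 13 genes called higher at 8 somites (red), the 35 called lower (blue) and the other named or listed genes (grey). Most called genes share their direction at both stages, and hsp70.3 lies at 3.05 at 8 somites and -0.40 at the gastrula stage.

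A test across all rows was possible only by borrowing the spread of the other groups. In a linear model of 7 arrays with 4 groups and dye, fitted with limma and Benjamini-Hochberg adjustment over 37157 rows, 0 rows passed an adjusted p of 0.05 for hypoxia at 8 somites, and 2634 had an unadjusted p under 0.05. The smallest adjusted p was 0.285, that of hsp70.3, whose fitted difference was 3.03 ± 0.23 (SE). Without dye in the model 9 rows passed, 5 of them higher and 4 lower, and 1 has a symbol, hsp70.3 (limma adjusted p = 0.0387). The lone hypoxic array is assumed to vary like the other groups in both fits. Even if no row differed, a share of about 0.05 of the 37157 rows would be expected at an unadjusted p under 0.05. Unadjusted counts in this paragraph are to be read against that share. For the difference between the stages, limma passed 0 rows with dye and 0 without, with 1569 and 1933 rows at an unadjusted p under 0.05. For hsp70.3 that difference was 3.43 ± 0.29 (SE; limma adjusted p = 0.875 with dye and 0.137 without).

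The rows with the largest differences carry no symbol. Row CD606702 had 13.20 in the hypoxic array, against 7.47 and 7.66 in the normoxic arrays, a difference of 5.63. The same row had 7.63 and 12.86 in the normoxic gastrula arrays, so it also differed widely between samples without hypoxia. Row ENSDART00000063497 had 12.63, against 7.43 and 8.15, a difference of 4.83. On the lower side ZV700S00001350 had 9.88, against 13.57 and 14.01, a difference of -3.91, and OTTDART00000001603 had 8.48, against 11.81 and 11.68, a difference of -3.27. The reference tables used here give these rows no name, and 440 of the 453 higher rows and 714 of the 749 lower rows are in the same position, so the named genes are a small sample of what differed.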

How the data were processed

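Per the labels' protocols, RNA of pooled whole embryos was made into cDNA carrying Cy3 or Cy5. The values that the authors deposited are log2 values made with RMA (version not given), per the submitters' processing notes. That they are log2 follows from their range of 6.85 to 15.96, and the array design, scanner and background handling are not given in the sources used here. One column, that of segmentation hypoxia replicate 2, holds no values. The sources used here do not give whether Cy3 and Cy5 samples were hybridised together, so each sample counts as 1 array. The number of arrays limits the precision.

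Identifiers of 3055 rows are RefSeq transcripts, and 2663 of these matched 1 symbol each, without versions, in RefSeq's genes of GRCz12tu, which served for names and gene neighbours. These cover 2650 genes (7.17% of rows), and 13 genes with several rows were represented by the row with the highest mean. A row was called where the hypoxic value lay at least 1 log2 unit outside both normoxic values. This is a description with no p-value. The limma 3.58.1 fit (R 4.3.3, empirical Bayes, two-sided, 7 arrays, 4 groups, dye) had 2 residual and 2.92 prior degrees of freedom, and its code was tested on simulated data. Its p-values reflect only how far the deposited replicates vary, which may be technical.

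The 41 gene lists are symbol patterns, so some members share only a prefix: 20 of the 25 matches to the immediate early and clock list are lens crystallins. Genes and lists were chosen with earlier results of these data known. The rule for named genes took the 12 largest called differences in each direction, up to 4 called members of each list (otherwise the member with the largest difference), 16 genes from those earlier results and the 5 genes on each side of the threshold. Other list members, the somite markers and lower genes outside the 12 were named after their values were seen. Other settings were a 1.5-fold threshold, median centring, quantile normalization again, leaving out the lowest 25% of rows or 1 array, the mean of a gene's rows, and a fit without dye. Sequences were not used here.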

Additional observations from a re-analysis of the deposited data

Results flagged for a closer look

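Of the 48 genes called at 8 somites, 2 had gastrula arrays set apart in the opposite direction. Such separation is frequent: both hypoxic gastrula arrays lay above both normoxic ones in 33.6% of all named genes, and below both in 29.8%. The Hsp70 gene hsp70.3 differed by 3.05 at 8 somites, with the hypoxic array above both controls, and both hypoxic gastrula arrays lay below both normoxic ones. The serpin gene serpinf2b (NM_001080010) had 9.05 in the hypoxic 8-somite array, against 10.12 and 10.84 in the normoxic arrays, a difference of -1.43, and averaged 8.34 in hypoxic gastrulae and 7.97 in normoxic gastrulae, with both hypoxic arrays higher. It lost the call at 8 somites after quantile normalization. The test of the difference between stages did not pass for either (limma adjusted p = 0.875 for hsp70.3 and 1.00 for serpinf2b, with differences between stages of 3.43 ± 0.29 and -1.61 ± 0.38, SE).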

How the results depend on the processing

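With 1 hypoxic array, no statement here has a replicate on that side, and counts depend on the threshold and the control used. At a 1.5-fold threshold 1499 rows were higher and 2833 lower (68 and 176 named genes). Leaving out 1 normoxic array gave 681 to 1579 higher and 1090 to 2456 lower rows (24 to 61 and 43 to 158 named genes), the lower end without replicate 2 and the upper end without replicate 1. Quantile normalization again gave 604 higher and 447 lower rows (21 and 17 named genes), and median centring 391 and 917 (12 and 44). The limma count of 0 became 9 without dye, and was 0 after median centring, after quantile normalization again, without the lowest 25% of rows and without any 1 normoxic or gastrula array. The limma count for the difference between stages was 0 in each of these settings, added after the data were seen. All 75 genes of the naming rule kept their sign under both scalings and against either normoxic array. For the 40 of them that were called, the sign against either array was fixed by the call itself. The same holds for the genes shown just outside the threshold, which also lay beyond both arrays. Of 41 list medians 36 kept their sign after median centring, 35 after quantile normalization again, 35 against replicate 1 alone and 38 against replicate 2 alone. For cav1, the difference was 0.96 in its brighter row and 0.26 as the mean of its rows. Counts by level bin, and list medians without lens crystallins, were added after the data were seen. No paired analysis was possible because the hypoxic and normoxic 8-somite groups share 1 replicate number with values.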

Other observations

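The 2 normoxic 8-somite arrays differed from each other along the same lines as hypoxic and normoxic gastrulae did. Over all 37157 rows, the normoxic replicate 1 minus replicate 2 difference correlated with the gastrula hypoxia difference at r = 0.401 (Pearson) and rho = 0.412 (Spearman), and over the 2650 named genes at 0.469 and 0.492. After quantile normalization again Pearson's r was 0.369 over rows and 0.420 over genes. These comparisons share no sample. The points are rows of shared arrays and not independent, and the normoxic arrays also differ in dye and in interquartile range (2.78 and 3.02). The part of dye in this was not tested.

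Lens genes came with the clock list by their prefix. The 20 lens crystallin genes had 0 calls, with 10 above 0 and 10 below, and crygm2d7 at 8.79 in the hypoxic array, against 9.53 and 9.80, was the largest difference in size at -0.88. The other 5 genes of that list, of clock and immediate early function by their patterns, had 0 calls and differed by -0.10 to 0.27.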
